A study of Homo sapiens with 33 samples.

Results

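The 20 oligonucleotides of the WRAP53 pool whose names begin with single are designed tiles, each carried by 35 barcodes. They were taken from the pool's count table by name, and they make up 20 of its 55 tiles and 20 of the 3358 tiles in the 5 pools of the series. The other tiles of the pool are 33 stem tiles, wt_1 and ctrl_1. What the class names stand for is read here no further than the names go, and wt_1 is taken for the unaltered one because of its name. Oligonucleotide sequences and positions in the source RNA were not used here, so each tile is identified by its name. The cells were HEK293T, an embryonic kidney line of human origin, which received the pool by transfection and also overexpressed FLAG-GFP-CTCF. They were collected after 48 hours and fixed with 0.1% formaldehyde for 10 minutes. The immunoprecipitate (IP) group holds 3 libraries made from RNA recovered through the FLAG tag, and the Input group holds 3 libraries made from lysate RNA. Cells of both groups carried the same pool and the same tagged protein, so the tagged CTCF was present at an overexpressed level throughout. No control precipitation was among the groups of this pool, so recovery with CTCF cannot be told apart from effects common to any FLAG precipitation.

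CTCF is a zinc-finger protein that binds DNA at insulator sites and chromatin loop anchors, and it also binds RNA. WRAP53 encodes a protein that brings telomerase to Cajal bodies, and RNA from this locus has been described as a partner of CTCF. An assay of this kind places many altered versions of an RNA stretch in the same cells and reads, by barcode, which of them are recovered with the protein more or less than the unaltered version.

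The libraries held 1216203 to 1322546 reads in IP and 1305043 to 1510200 reads in Input. A single tile was read between 8512 and 30784 times per library, for which counting alone gives a coefficient of variation of 1.08% to 0.570%. The spread between libraries was larger: over the 20 tiles the coefficient of variation among 3 libraries had a median of 4.73% in IP (0.366% to 9.64%) and of 3.41% in Input (0.728% to 6.49%). Counts carry no molecular identifiers, so the counting figures leave out errors of amplification. The tile ctrl_1 took 14.5% to 16.0% of the reads in IP and 24.4% to 31.5% in Input. Of the reads not taken by ctrl_1, the single tiles together held 34.1% to 34.4% in IP and 34.2% to 34.3% in Input. As a class they therefore kept their share of the reads not taken by ctrl_1 in all 6 libraries.

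Relative to the bulk of the pool, the single tiles stood in the IP much as they did in Input, with single_16 as the exception in size. Of the 20 tiles, single_16 rose, single_1 and single_12 fell, and 17 did not pass the test (edgeR quasi-likelihood F test on counts scaled by TMM, Benjamini-Hochberg adjusted p under 0.05 over all 55 tiles). The same test called 21.8% of all tiles of the pool, 9.09% higher and 12.7% lower, so 3 calls of 20 are no more than the pool's own rate. The median log2 fold change of the single tiles was 0.02, against 0.01 over all tiles tested, and 12 of the 20 values were above 0. TMM sets the bulk of the pool near 0, and 53 of the 55 tiles are single or stem tiles. The class median was therefore largely fixed by the scaling and does not show unchanged recovery. Scaled by library size alone, 17 single tiles passed in edgeR, each of them higher. Scaled levels (CPM, read counts relative to library size after TMM scaling) did not overlap between the groups in 5 single tiles, 3 of them higher in IP and 2 lower, where 30.9% of all tiles had groups that did not overlap.

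The tile single_16 had 8729, 9376 and 9446 CPM in the IP libraries, against 6871, 7399 and 6771 CPM in the Input libraries. Every IP library lay above every Input library, and the gap of 1330 CPM between the groups exceeded the range within either of them. The means were 9184 ± 396 CPM in IP and 7013 ± 338 CPM in Input (SD, n = 3 each), a 1.31-fold difference with a 95% interval of 1.20 to 1.42. On the log2 scale it rose by 0.39 ± 0.06 (SE; edgeR adjusted p = 1.81e-08). This SE and p-value rest on variance pooled over the tiles of the pool, not on the 6 values of single_16 alone. Leaving out any 1 of the 6 libraries gave log2 fold changes of 0.37 to 0.45, and the call held each time.

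Set against wt_1 in the same library, single_16 stood at 0.484, 0.522 and 0.505 of the wt_1 level in the IP libraries and at 0.381, 0.412 and 0.381 in the Input libraries. This ratio does not depend on how a library is scaled. The change exceeded that of wt_1 by a log2 value of 0.36 ± 0.07 (SE, 3 libraries a group; limma adjusted p = 6.33e-06 over 53 single and stem tiles), or 1.29-fold with a 95% interval of 1.17 to 1.41. The tile wt_1 itself had 18052, 17977 and 18724 CPM in IP and 18016, 17939 and 17778 CPM in Input. Its groups overlapped, and its log2 fold change of 0.03 ± 0.05 did not pass (edgeR adjusted p = 0.745). When each tile was represented by its median barcode in place of its summed reads, the difference of single_16 from wt_1 was 0.38 and no longer passed (limma adjusted p = 0.0919).

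The lowest single tile by fold change was single_1, the most abundant of the class. It had 19900, 21544 and 20524 CPM in the IP libraries, against 22090, 22032 and 23340 CPM in the Input libraries. All IP values lay below all Input values, but the groups were 488 CPM apart at their nearest, less than the SD of 830 CPM in IP. The fold was 0.918 (95% interval 0.864 to 0.977), and its log2 value was -0.12 ± 0.05 (SE, 3 libraries a group; edgeR adjusted p = 0.0368). Relative to wt_1 it stood at 1.10, 1.20 and 1.10 in IP and at 1.23, 1.23 and 1.31 in Input, a log2 difference of -0.15 ± 0.05 (limma adjusted p = 0.0176).

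The second tile that fell, single_12, had 12730, 12119 and 12793 CPM in the IP libraries and 13521, 13718 and 13367 CPM in the Input libraries. The groups did not overlap. The fold was 0.927 (95% interval 0.875 to 0.982), or -0.11 ± 0.04 as a log2 value (SE, 3 libraries a group; edgeR adjusted p = 0.0460). Relative to wt_1 it stood at 0.688 ± 0.016 in IP and 0.756 ± 0.008 in Input (SD, n = 3 each), a log2 difference of -0.14 ± 0.05 (limma adjusted p = 0.0424). With each library left out in turn, single_12 kept log2 fold changes of -0.12 to -0.08, but its edgeR call was lost each time (adjusted p up to 0.334). For single_1 they ran from -0.15 without IP replicate 2, where the call held, to -0.08 without Input replicate 3, and the call was lost without any other 1 library (edgeR adjusted p up to 0.323). With the median of all single and stem tiles as the base in place of wt_1, neither passed (-0.11 for single_1, limma adjusted p = 0.111; -0.09 for single_12, limma adjusted p = 0.118).

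After single_16 in the order of fold changes came single_3, which had 8005, 8878 and 8170 CPM in the IP libraries and 7812, 7612 and 7654 CPM in the Input libraries. Its groups did not overlap, but the log2 fold change of 0.12 ± 0.06 did not pass (SE; edgeR adjusted p = 0.180). The tile single_9 had 14844, 14867 and 14947 CPM in IP and 14024, 14606 and 13587 CPM in Input, again without overlap, and its value of 0.08 ± 0.04 did not pass either (edgeR adjusted p = 0.168). At the other end, single_7 had a log2 fold change of -0.10 ± 0.06 with overlapping groups (edgeR adjusted p = 0.295). In the remaining 14 tiles the groups overlapped, and the log2 fold changes ran from -0.05 in single_13 to 0.07 in single_11.

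Measured against wt_1, 3 of the 20 single tiles passed, the same 3 as above, where 17.0% of the 53 single and stem tiles passed, 5.66% higher and 11.3% lower. Groups did not overlap in 4 single tiles (single_16 and single_3 higher, single_1 and single_12 lower), against 32.1% of those 53 tiles. The median difference from wt_1 was -0.003 on the log2 scale for the single tiles and -0.02 over all 53, and 10 single tiles lay on each side of 0. For the 17 single tiles that did not pass, the differences ran from -0.13 in single_7 to 0.09 in single_3, and their 95% intervals lay between 0.833-fold and 1.17-fold. A difference from wt_1 as large as that of single_16 lay outside the interval of each of these 17 tiles. All of these tests share the counts of wt_1, so an error in wt_1 moves the 20 differences together. Without IP replicate 2, single_7 and single_18 also passed as lower than wt_1 (-0.18 and -0.11, limma adjusted p = 0.0269 and 0.0365).

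Among themselves the single tiles varied little in fold change apart from single_16. The SD of the log2 fold change over the 20 tiles was 0.11, and it was 0.06 over the other 19, where the standard error of 1 tile was 0.04 to 0.06. Over the 33 stem tiles, with none left out, the SD was 0.10, to be set beside the 0.11 of all 20 single tiles. The stem tiles had a median of -0.001 and values from -0.16 to 0.27, among which 4 passed as higher and 4 as lower. The value of single_16 was the highest of the 55 tiles, but its difference from the highest stem tile was not tested.

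Levels differed far more between tiles than between fractions. In Input, 16 single tiles stood below wt_1 in every library, single_1, single_11 and single_14 stood above it in every library, and single_10 lay on both sides of it (1.01 ± 0.01 of wt_1). The lowest levels in Input, 0.392 to 0.595 of wt_1, were those of single_16, single_3, single_7, single_2, single_4, single_5 and single_6. Those of single_18, single_17, single_19, single_20, single_8, single_12 and single_9 were 0.667 to 0.786, and single_15, single_13, single_10, single_11 and single_14 were at 0.906 to 1.07. The tile single_1 was highest at 1.26 ± 0.05 (SD, n = 3). The amount of transfected DNA per tile was not analysed here, so a level in Input may reflect the amount of template or of RNA, which cannot be told apart.

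The place of single_16 in this order differed between the fractions. It was the lowest of the 20 in Input, at 0.392 ± 0.018 of wt_1, below single_3 at 0.430 ± 0.005. In the IP it stood at 0.503 ± 0.019, above single_7 (0.417 ± 0.029), single_3 (0.458 ± 0.031), single_2 (0.478 ± 0.004) and single_4 (0.490 ± 0.043). Except between single_7 and single_3, each of these IP levels differed from the next by less than the larger of their SDs. Over the 20 tiles, the log2 of the mean CPM in Input and the log2 fold change gave Pearson's r of -0.42 and Spearman's rho of -0.18. Over the 19 tiles without single_16 they gave -0.16 and -0.05. These are descriptions across tiles that share the same 6 libraries, and the Input level enters both measures.

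The sign of the single tiles' values depended on the base. Relative to ctrl_1 in the same library, all 20 stood higher in every IP library than in every Input library, by 0.97 for single_1 to 1.48 for single_16 on the log2 scale, with a median of 1.12. The tile wt_1 gave 1.12 as well, and groups failed to overlap in 100% of the 54 tiles set against ctrl_1. This description carries no test, and all of these values share ctrl_1, which itself fell by 1.11 ± 0.17 on the log2 scale (SE; edgeR). Scaling by library size alone, which lets ctrl_1 weigh on every other tile, moved the median of all tiles to 0.23 and edgeR then passed 17 single tiles, each of them higher. Relative to that median, single_16 lay at 0.38 and single_1 at -0.13.

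The barcodes of a tile share its sequence and give repeated readings of it within a library. Of the 700 single-tile barcodes, 698 had at least 30 reads over the 6 libraries, and 348 of these had a higher mean CPM in IP and 350 a lower one, where 49.3% of all barcodes in the pool were higher. In single_16, 27 of 35 barcodes were higher, with a median log2 ratio of 0.46, quartiles of 0.10 and 0.60, and a range of -0.62 to 1.14. Each IP library by itself placed 25, 27 and 25 of these barcodes above the mean of Input. In 14 of the 35, all IP libraries lay above all Input libraries, and in 0 they lay below, whereas 6.45% of all barcodes in the pool lay wholly above. No other single tile had more than 5 such barcodes. Of the stem tiles, stem_21 and stem_29 each had 29 of 35 barcodes higher, with 7 wholly above. The tile stem_11 also had 7 wholly above, with 21 of 35 higher.

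The gain of single_16 was spread over its barcodes. The barcode of most reads held 5.47% of the tile's reads, and without that barcode in each tile the log2 fold change of single_16 was 0.39. Of the 8 barcodes that were lower in IP, 6 had fewer reads than the tile's median of 1994 per barcode, as did 11 of the 27 that were higher. The lowest, barcode 8, had 296 reads in IP and 427 in Input. The highest, barcode 14, had 516 reads in IP and 217 in Input.

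The barcodes of single_1 split about as unevenly as those of single_16, and those of single_12 less so. In both tiles fewer barcodes than in single_16 had groups that did not overlap. In single_1, 9 of 35 barcodes were higher and 26 lower, with a median log2 ratio of -0.12. All IP libraries lay below all Input libraries in 5 of its barcodes and above in 0, where 7.64% of the pool's barcodes lay wholly below. Those 147 barcodes include all 35 of ctrl_1, which raises this share. In single_12, 14 barcodes were higher and 21 lower, with 3 wholly below and 1 wholly above. The tile single_7, which did not pass, had a split as uneven as that of single_1, with 8 barcodes higher and 26 lower of 34. In wt_1, 20 barcodes were higher and 15 lower. Without the barcode of most reads in each tile, neither fall passed in edgeR (-0.12 for single_1, adjusted p = 0.0726; -0.09 for single_12, adjusted p = 0.114). With the median over barcodes in place of summed reads, the log2 fold change was -0.17 for single_1 and -0.07 for single_12, and the difference of single_1 from wt_1 was -0.25. None of these passed (limma adjusted p = 0.0966, 0.727 and 0.205, in this order).

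Barcode readings were noisier in the IP. Over the single-tile barcodes, the log2 ratio between a pair of libraries had an SD of 0.62 to 0.70 among IP libraries and of 0.36 to 0.39 among Input libraries. The SD of the IP to Input ratio over the barcodes of a tile ran from 0.20 in single_11 to 0.51 in single_2, and it was 0.42 in single_16. In single_2, single_3 and single_16, a ratio of 1 barcode therefore varied by about as much as the log2 fold change of single_16 itself. It varied less in the other single tiles, where the highest SD was 0.34 in single_12.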

How the data were processed

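The authors deposited raw read counts per tile and barcode, with 1 column per library, from single-end amplicon sequencing of cDNA. How reads were assigned to barcodes is not given in the sources used here. Columns of the WRAP53 pool were matched to samples by name and pool. Separate cultures are not named in the labels, so p-values reflect the spread among these libraries only, and that spread may be technical. Both fits moderate the variance of a tile towards that of all tiles in the fit. Standard errors and p-values therefore rest mostly on spread pooled over the tiles, not on a tile's own 3 libraries a group. No pair of libraries of a group agreed within sampling noise (chi-square per degree of freedom of tile counts 38.7 to 324, and 11.1 to 50.0 without ctrl_1), so none was treated as a duplicate deposit. This does not show separate cultures.

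Counts were summed over the 35 barcodes of a tile. All 55 tiles passed filterByExpr. IP and Input were compared in R 4.3.3 with edgeR 4.0.16 (TMM, robust quasi-likelihood F test). Standard errors were taken as |log2 fold change|/√F. Log2 CPM (prior count 2) of a tile minus that of wt_1 was tested with limma 3.58.1 (trend, robust). DESeq2 1.42.0 was an alternative. Per-library values are given for called tiles, the 2 highest and the 2 lowest by fold change, and wt_1. By a choice made after the values were seen, single_9 was added, as were the values of 2 barcodes of single_16. The members and tests were chosen with earlier results of these data known.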

Additional observations from a re-analysis of the deposited data

How the results depend on the processing

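The rise of single_16 passed under all 15 alternatives to the edgeR fit and under 12 of 13 to the fit against wt_1. Among the 15, no filter and a minimum mean count of 50 kept the same 55 tiles as the main fit. These settings repeated that fit and could change no call. The count of 3 single tiles called in IP against Input stayed with RLE factors, DESeq2, no filter and a minimum mean count of 50, was 2 without ctrl_1, was 1 with the replicate block (adjusted p = 0.0580 for single_1 and 0.177 for single_12), 1 without the barcode of most reads, 1 with the median over barcodes and 17 by library size alone, and ran from 1 to 2 with each library left out. Against wt_1 the 3 calls stayed with prior counts of 0.5 and 10 and with wt_1 as library size in edgeR, were 2 with the replicate block and without the barcode of most reads, 1 with the median tile as base, 0 in limma with the median over barcodes (3 at an unadjusted p under 0.05; edgeR with wt_1 as library size, on summed reads, called 3), and 1 to 5 with each library left out. Same-numbered IP and Input libraries deviated together by r = 0.23, 0.25 and 0.02, and every library but Input 3 correlated best with its own number. The main fits did not take the numbers as pairs, and these values do not settle whether they are. Each lost call was of single_1 or single_12, apart from that of single_16 with the median over barcodes against wt_1. Leaving out a library leaves fewer samples; otherwise the cause was not tested.

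Apart from scaling by library size alone, signs turned only for tiles that had not passed. That scaling gave log2 fold changes of 0.10 (single_1), 0.22 (single_4), 0.21 (single_6), 0.12 (single_7), 0.19 (single_10), 0.11 (single_12), 0.17 (single_13) and 0.21 (single_18). Without the barcode of most reads single_4 was at 0.0082 and single_6 at 0.0020; with the median over barcodes single_4 was at 0.018, single_5 at -0.083, single_8 at -0.11 and single_17 at -0.12. Against wt_1, the median tile as base gave 0.037 (single_2), 0.014 (single_4), 0.035 (single_5) and 0.0088 (single_18). Without the barcode of most reads these differences were -0.00087 (single_8), -0.010 (single_14), -0.0076 (single_17), -0.024 (single_19) and -0.011 (single_20), and with the median over barcodes -0.18 (single_8), -0.042 (single_9), -0.073 (single_14), -0.0036 (single_15), -0.20 (single_17), -0.061 (single_19) and -0.027 (single_20).

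With each library left out, the fold changes that turned ran from -0.0069 to 0.067 (single_5), -0.095 to 0.041 (single_6), -0.075 to 0.051 (single_18), -0.060 to 0.015 (single_10), -0.016 to 0.080 (single_17) and -0.046 to 0.049 (single_4). The differences from wt_1 that turned ran from -0.103 to 0.0035 (single_6), -0.032 to 0.064 (single_14), -0.044 to 0.047 (single_15), -0.113 to 0.015 (single_18), -0.017 to 0.028 (single_19), -0.030 to 0.026 (single_20), -0.028 to 0.064 (single_8), -0.053 to 0.069 (single_17), -0.025 to 0.022 (single_2), -0.084 to 0.041 (single_4) and -0.046 to 0.059 (single_5). At this depth the median spread between libraries was larger than read counting alone gives. How far sampling of molecules before amplification added to that spread was not tested.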
